A study of Mus musculus with 24 samples.

Results

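The growth hormone and IGF1 axis of the liver was followed through 10 genes out of 41388 genes counted by bulk RNA sequencing. They were chosen by symbol, with earlier results of these data known, as Ghr, Stat5b, Socs2, Socs3, Cish, Igf1, Igfals, Igfbp2, Igfbp3 and Igfbp4. All 10 passed the limit on low counts, together with 13052 genes in all. Livers came from male mice on a C57BL/6J background. Every mouse carried Lpin1-floxed alleles, the gene of the phosphatidic acid phosphohydrolase lipin 1. Adn-Lpin1-/- mice also carried Cre recombinase driven by the adiponectin promoter, which acts in adipocytes, and WT mice were littermates without Cre, so that the level of Lpin1 in liver does not check the genotype. From 8 weeks of age, mice of each genotype received a low-fat diet (LFD, 10% of kcal from fat) or a high-fat diet (HFD, 60% of kcal from fat) and were fasted for 4 hours before sacrifice. The labels give 16 weeks of diet and the study's methods give a shorter time. Each of the 4 groups (WT LFD, Adn-Lpin1-/- LFD, WT HFD and Adn-Lpin1-/- HFD) held 5 mice sequenced singly and 1 pool of their RNA, and the pools were left out of the tests.

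Growth hormone from the pituitary binds GHR on hepatocytes, which activates the kinase JAK2 and the transcription factor STAT5B. STAT5B raises the transcription of Igf1 and Igfals, whose products circulate together with a binding protein as a ternary complex, and of the SOCS family genes Socs2, Socs3 and Cish, whose products damp signaling at the receptor. In male rodents the hormone is released in pulses, and this pattern sets many of the sex differences in liver gene expression.

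Total counts were 36260187 to 45999456 for WT and 51095146 to 61435897 for Adn-Lpin1-/- mice fed the LFD, and 54036184 to 62249701 and 57550362 to 81072794 for those fed the HFD. Every member had at least 145 reads in every mouse (the lowest was Cish). Depth moved with the groups, and the 9 calls of members by genotype on each diet and by diet were all kept when the libraries were thinned to one total. The hepatocyte markers Alb, Apoa1, Ttr, Cps1 and Serpina1a were detected in every library, with a summed level of 73279 to 119449 CPM (counts divided by the TMM-scaled library size, times 1000000). The level of each member in each mouse is plotted first, and its values follow by role.

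**Figure D1:**
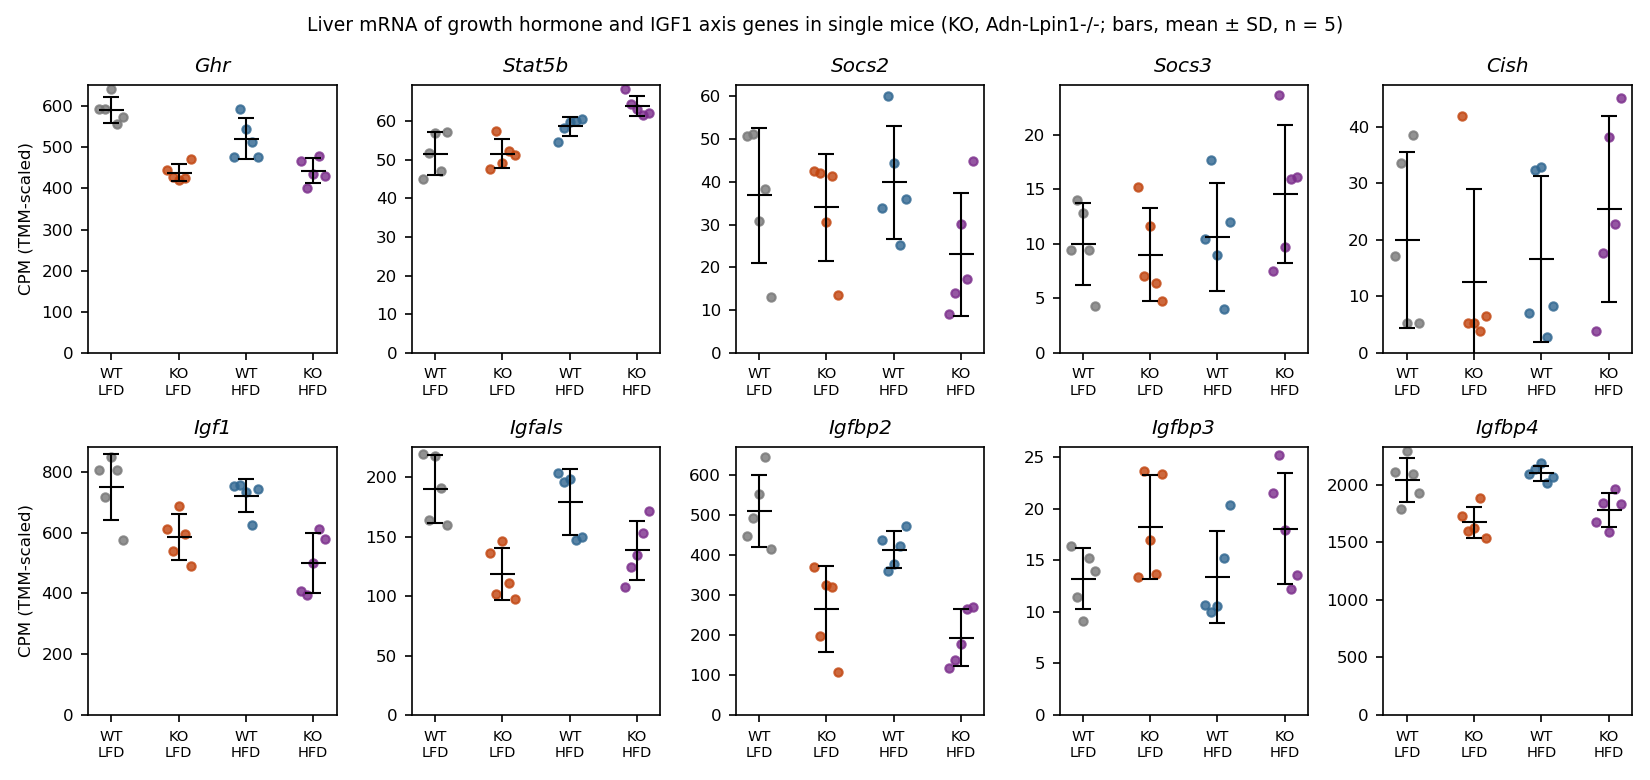
Each panel plots 1 gene, with the TMM-scaled CPM on the vertical axis and the 4 groups on the horizontal axis (KO stands for Adn-Lpin1-/-). Points are single mice and bars are the mean ± SD of 5 mice, cut at 0 for Cish in Adn-Lpin1-/- LFD. Ghr, Igf1, Igfals, Igfbp2 and Igfbp4 sit lower in Adn-Lpin1-/- mice on each diet, while Socs2, Socs3 and Cish scatter widely within every group.

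STAT5 proteins bind DNA at the palindrome TTCNNNGAA, and the windows of 250 bases before to 50 bases after the RefSeq start sites (GRCm38.p6) were searched for it, to show whether the members' promoters hold these letters. The palindrome reads the same way on either strand, so 1 strand was searched. A window was found for 9 of the 10 members (14 windows in all), and for Socs2 none. The motif was in 4 of the 14 windows (28.6%) and in 2726 of 32851 windows of all genes (8.3%). The stretches that hold it are printed 5′ to 3′ on the strand of the gene, with the motif in capitals, and a match of letters is a description and not a binding site.
Cish, chr9:107296654-107296683, plus strand: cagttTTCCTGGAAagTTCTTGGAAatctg
Socs3, chr11:117969502-117969530, minus strand: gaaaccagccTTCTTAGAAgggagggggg
Igfals, first window, chr17:24877598-24877626, plus strand: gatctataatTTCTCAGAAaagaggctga
Igfals, second window, chr17:24878163-24878191, plus strand: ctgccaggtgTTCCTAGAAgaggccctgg

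Cish, a feedback gene of the SOCS family, had 2 motifs within its window, a number that 0.457% of all windows reached. The first began at the RefSeq start site and the second 11 bases after it, in the first exon (5′ untranslated part) of the Cish-201 transcript. The Socs3 motif began 154 bases before the start site, inside the annotated gene but in no exon. The Igfals motifs began 236 and 58 bases before start sites of RefSeq transcripts that lie upstream of the Igfals position used in the counting (24878770), and the third Igfals window held none. The windows of Ghr, Stat5b, Igf1, Igfbp2, Igfbp3 and Igfbp4 held no match.

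Between genes, levels were compared per kilobase as the deposited RPKM. Over the 20 mice the mean was highest for Igfbp4 (426 RPKM), followed by Igfbp2 (183), Igfals (73.4), Igf1 (63.8), Ghr (54.6), Stat5b (10.2), Igfbp3 (5.05), Socs3 (3.82), Socs2 (3.47) and Cish (2.91). Secreted products thus led the order and the feedback genes closed it. Igfbp4 and Igfbp2, and Ghr and Stat5b, were the neighbors whose ranges over mice did not overlap. Igfals exceeded Igf1 in 15 of 20 mice, Igf1 exceeded Ghr in 16, and among Igfbp3, Socs3, Socs2 and Cish each gene exceeded the next in 12 or 13 of 20 mice, so the order at these places does not hold mouse by mouse.

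To ask whether loss of lipin 1 in adipocytes went with a change in the hepatic axis, the genotypes were compared on each diet with edgeR's quasi-likelihood test, and a gene was called at a Benjamini-Hochberg adjusted p at or below 0.05 over all genes tested. On the LFD, Ghr, Igfals, Igfbp2 and Igfbp4 were lower in Adn-Lpin1-/- mice. On the HFD, Ghr, Igf1, Igfbp2 and Igfbp4 were lower. Hence 4 of 10 members were called under each diet, every one of them lower, where 14.4% and 18.6% of all genes were called and 8.11% and 8.78% were called lower. Without WT mouse 2 or without Adn-Lpin1-/- mouse 2 of the HFD groups, 2 members were called there. Those fits called 1754 and 1477 of all genes, against 2434 with every mouse. The members' median log2 fold change was -0.32 (LFD) and -0.24 (HFD), against 0.01 and 0.00 over all genes tested. The groups did not overlap for Ghr, Igfals and Igfbp2 on the LFD (10.1% of all genes) and for Stat5b, Igf1, Igfbp2 and Igfbp4 on the HFD (11.4% of all genes).

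**Figure D2:**
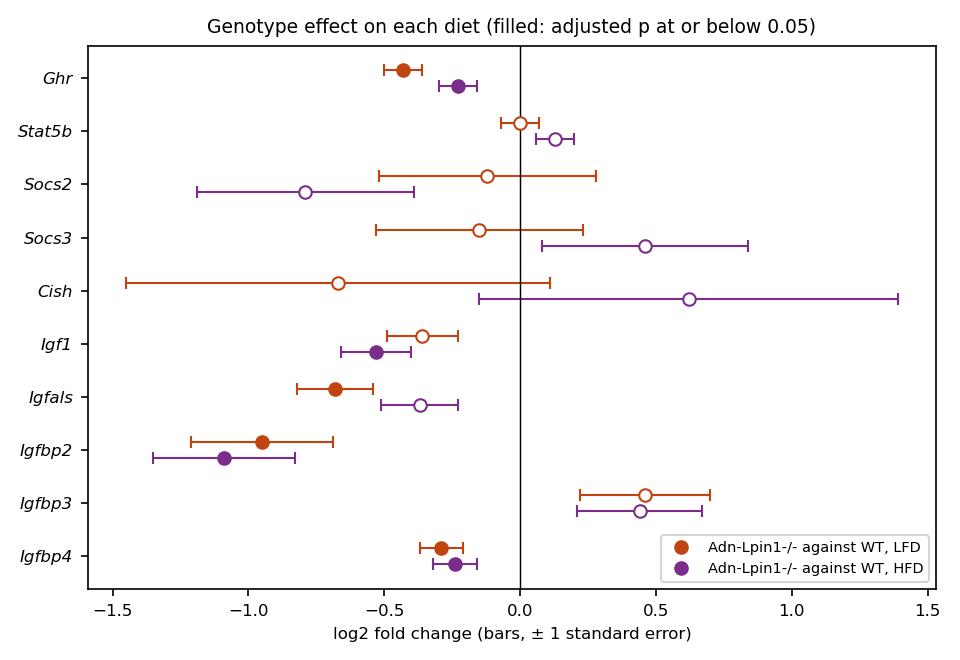
The horizontal axis gives the log2 fold change of Adn-Lpin1-/- against WT mice on each diet with 1 standard error (5 mice per group), and filled points passed the adjusted threshold. The 8 filled points all lie left of 0, from -1.09 for Igfbp2 on the HFD to -0.23 for Ghr on the HFD, and the widest bars belong to Cish.

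Ghr (ENSMUSG00000055737, chromosome 15, 3317760 to 3583492 on GRCm38, minus strand) encodes the growth hormone receptor. On the LFD it measured 592, 593, 641, 556 and 573 CPM in WT mice and 445, 428, 420, 426 and 472 CPM in Adn-Lpin1-/- mice. The groups did not overlap, and the log2 fold change was -0.43 ± 0.07 (SE; adjusted p = 0.000436 in edgeR's test). On the HFD the values were 477, 593, 546, 514 and 478 CPM in WT and 467, 402, 436, 479 and 431 CPM in Adn-Lpin1-/- mice. Here 4 of 5 Adn-Lpin1-/- mice were below every WT mouse and the log2 fold change was -0.23 ± 0.07 (adjusted p = 0.0239), but removing the GC trend of every library brought it to -0.09 (adjusted p = 0.331). The HFD call was also lost without WT mouse 2 (adjusted p = 0.0729) or Adn-Lpin1-/- mouse 2 (0.0744).

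Stat5b (ENSMUSG00000020919, chromosome 11, 100780731 to 100850724, minus strand) encodes the main transcription factor below the receptor, and its paralog Stat5a lies beside it on the chromosome. On the LFD it measured 44.96, 51.8, 56.9, 47.0 and 57.1 CPM in WT and 47.6, 57.5, 49.2, 52.3 and 51.1 CPM in Adn-Lpin1-/- mice, which overlap throughout. On the HFD it measured 54.7, 58.1, 59.8, 60.0 and 60.6 CPM in WT and 68.3, 64.5, 63.0, 61.7 and 62.2 CPM in Adn-Lpin1-/- mice. All HFD Adn-Lpin1-/- mice were above all HFD WT mice, by a log2 fold change of 0.13 ± 0.07. The exact two-sided permutation test of 5 against 5 mice gave p = 0.00794, the smallest it can give, whereas edgeR's adjusted p was 0.207, so the difference was not called.

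The feedback genes were not called in either comparison of the genotypes. Socs2 (ENSMUSG00000020027, chromosome 10, 95385362 to 95417180, minus strand) measured 50.8, 51.3, 30.8, 38.3 and 13.2 CPM in WT LFD and 42.6, 42.0, 30.7, 41.4 and 13.5 CPM in Adn-Lpin1-/- LFD. With HFD feeding it measured 33.8, 60.2, 44.3, 25.1 and 36.0 CPM in WT and 9.04, 13.9, 30.1, 17.4 and 44.8 CPM in Adn-Lpin1-/- mice. On the HFD 3 of 5 Adn-Lpin1-/- mice were below every WT mouse, and the log2 fold change of -0.79 ± 0.40 did not pass (adjusted p = 0.176). Without Adn-Lpin1-/- mouse 5 it was -1.18 (adjusted p = 0.0453).

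Socs3 (ENSMUSG00000053113, chromosome 11, 117966079 to 117970047, minus strand), which is also induced by interleukin 6 through STAT3, ranged from 4.29 to 13.97 CPM in WT and from 4.79 to 15.2 CPM in Adn-Lpin1-/- mice fed the LFD. With HFD feeding its range was 4.02 to 17.7 CPM in WT and 7.52 to 23.6 CPM in Adn-Lpin1-/- mice. The genotypes differed by a log2 fold change of -0.15 ± 0.38 (LFD) and 0.46 ± 0.38 (HFD), neither past the threshold. Cish (ENSMUSG00000032578, chromosome 9, 107296026 to 107302784, plus strand) measured 17.2, 33.6, 5.33, 38.5 and 5.23 CPM in WT LFD and 42.0, 5.23, 5.31, 3.88 and 6.57 CPM in Adn-Lpin1-/- LFD. In HFD-fed mice it measured 6.99, 32.3, 32.8, 2.79 and 8.29 CPM in WT and 3.78, 17.7, 38.2, 22.7 and 45.03 CPM in Adn-Lpin1-/- mice. Each group held mice near the lowest and near the highest level, and the log2 fold changes of -0.67 ± 0.78 and 0.62 ± 0.77 were no larger than their error. Without Adn-Lpin1-/- LFD mouse 1, the one high mouse of its group, the LFD value was -1.93 (adjusted p = 0.0936). Cish overlaps Gm17040, a pseudogene on the opposite strand with at most 138 reads in a mouse, and whether the counting used strand was not given in the sources used here.

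Igf1 (ENSMUSG00000020053, chromosome 10, 87858265 to 87937042, plus strand) encodes the hormone that carries much of the growth-promoting action of growth hormone. On the LFD it measured 805, 718, 849, 805 and 575 CPM in WT and 611, 540, 689, 595 and 490 CPM in Adn-Lpin1-/- mice. The groups overlapped, with 2 of 5 Adn-Lpin1-/- mice below every WT mouse, and the log2 fold change of -0.36 ± 0.13 missed the threshold (adjusted p = 0.0626). It was called with DESeq2's Wald test (0.0363), with voom (0.0257) and in 4 of 20 fits that left out 1 mouse (such as WT LFD mouse 5, -0.44 and 0.0206), whereas with the GC trend removed it was -0.17 (adjusted p = 0.3855). On the HFD it measured 755, 756, 733, 626 and 742 CPM in WT and 409, 394, 502, 613 and 581 CPM in Adn-Lpin1-/- mice. All 5 Adn-Lpin1-/- mice lay under the lowest WT mouse, and the log2 fold change was -0.53 ± 0.13 (adjusted p = 0.00772). With the GC trend removed it was -0.35 (adjusted p = 0.0619).

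Igfals (ENSMUSG00000046070, chromosome 17, 24878770 to 24882008, plus strand) encodes the acid-labile subunit, which holds IGF1 in the circulation. On the LFD it measured 220, 164, 218, 191 and 160 CPM in WT and 136, 102, 147, 112 and 97.5 CPM in Adn-Lpin1-/- mice. The groups did not overlap, and the log2 fold change was -0.68 ± 0.14 (adjusted p = 0.00367). On the HFD it measured 204, 196, 199, 147 and 150 CPM in WT and 108, 125, 135, 153 and 172 CPM in Adn-Lpin1-/- mice. The HFD groups overlapped, and the log2 fold change of -0.37 ± 0.14 was just short of a call (adjusted p = 0.0724). It was called with DESeq2's Wald test (0.0461), with voom (0.0489) and with the GC trend removed (-0.50, 0.0203).

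Of the 3 binding proteins, Igfbp2 and Igfbp4 fell on each diet and Igfbp3 was not called. Igfbp2 (ENSMUSG00000039323, chromosome 1, 72824503 to 72852474, plus strand), which binds IGF1 and IGF2 outside the ternary complex, showed the largest called change of the 10 members. On the LFD it measured 447, 493, 553, 644 and 414 CPM in WT and 369, 198, 325, 319 and 109 CPM in Adn-Lpin1-/- mice. Under HFD feeding it measured 436, 361, 377, 421 and 473 CPM in WT and 117, 138, 179, 266 and 269 CPM in Adn-Lpin1-/- mice. The groups did not overlap on either diet, with a log2 fold change of -0.95 ± 0.26 (adjusted p = 0.0208) on the LFD and -1.09 ± 0.26 (adjusted p = 0.00839) on the HFD. By the fitted fold it fell by 48.3% under LFD and fell by 53.2% under HFD feeding. The LFD call was lost without WT mouse 4 (adjusted p = 0.0551) or Adn-Lpin1-/- mouse 2 (0.0599).

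Igfbp4 (ENSMUSG00000017493, chromosome 11, 99041244 to 99054392, plus strand), a binding protein that restrains IGF action and is cut by the protease PAPP-A, was the most abundant member. On the LFD it measured 2107, 1789, 2291, 2092 and 1928 CPM in WT and 1731, 1597, 1620, 1880 and 1535 CPM in Adn-Lpin1-/- mice. With HFD feeding it measured 2092, 2138, 2184, 2012 and 2068 CPM in WT and 1679, 1842, 1588, 1959 and 1829 CPM in Adn-Lpin1-/- mice. The decrease was small and even, with a log2 fold change of -0.29 ± 0.08 (adjusted p = 0.0169) on the LFD and -0.24 ± 0.08 (adjusted p = 0.0364) on the HFD, where 5 of 5 Adn-Lpin1-/- mice were below every WT mouse. Leaving out WT mouse 2 or 3 or Adn-Lpin1-/- mouse 1, 2 or 3 of the HFD groups lost that call (adjusted p up to 0.0929), as leaving out WT mouse 3 lost the LFD call (0.0518).

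Igfbp3 (ENSMUSG00000020427, chromosome 11, 7206086 to 7213923, minus strand) encodes the main binding protein of the ternary complex, made in rodent liver largely by nonparenchymal cells. It ranged from 9.08 to 16.4 CPM in WT and from 13.4 to 23.6 CPM in Adn-Lpin1-/- mice fed the LFD, and from 9.99 to 20.4 CPM and 12.2 to 25.2 CPM in those fed the HFD. The groups overlapped on each diet, and the log2 fold changes of 0.46 ± 0.24 (adjusted p = 0.206) and 0.44 ± 0.23 (adjusted p = 0.203) did not pass. The summed level of 8 markers of sinusoidal endothelial cells was 119 to 187 CPM in WT and 168 to 285 CPM in Adn-Lpin1-/- mice fed the LFD, and 134 to 196 CPM and 222 to 243 CPM in those fed the HFD. All 8 were higher in Adn-Lpin1-/- mice on each diet, with none at 0. Of them 3 (LFD) and 5 (HFD) were called, where 14.4% and 18.6% of all genes were called. The part of these markers in the Igfbp3 values was not tested.

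Markers of hepatocytes were mostly lower in Adn-Lpin1-/- mice, as were the members that fell. Of the 5 markers, 4 were lower and 1 was higher on the LFD, and 5 were lower on the HFD. Their summed level was 102591 to 110025 CPM in WT and 73279 to 98209 CPM in Adn-Lpin1-/- mice fed the LFD, which do not overlap, and 92359 to 119449 CPM and 77245 to 101422 CPM in those fed the HFD. Of the 5 markers, Serpina1a was called lower on the LFD, and Alb, Apoa1, Cps1 and Serpina1a were called lower on the HFD. Serpina1a, the only LFD call, is from the same family of near-identical copies as the male-biased gene Serpina1e (below). Its reads are hard to assign, so its values are uncertain. Of all genes, 8.11% and 8.78% were called lower. The 5 had a median log2 fold change of -0.29 (LFD) and -0.42 (HFD), against -0.43 and -0.23 for Ghr, -0.29 and -0.24 for Igfbp4, and -0.95 and -1.09 for Igfbp2. In bulk RNA, fewer cells of a type and less RNA per cell cannot be told apart, and the part of hepatocyte content in these results was not tested.

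Markers of other liver cells were mostly higher in Adn-Lpin1-/- mice. The counts of calls below stand beside 14.4% (LFD) and 18.6% (HFD) of all genes called. For 11 markers of Kupffer cells and macrophages the summed level was 131 to 242 CPM in WT and 168 to 329 CPM in Adn-Lpin1-/- mice fed the LFD, and 161 to 199 CPM and 207 to 484 CPM in those fed the HFD. Of the 11, Gpnmb and Trem2 exceeded 1 CPM in Adn-Lpin1-/- mice alone, so they passed the limit on low counts only through the genotype in which they were high and are left out of the counts. The other 9 had a positive log2 fold change on each diet, of which 7 were called under HFD and 0 under LFD feeding in edgeR's test (1 at an unadjusted p below 0.05, 1 called with DESeq2 and 0 with voom). Of 10 markers of hepatic stellate cells, 3 were called higher on the LFD (Dcn, Col1a1 and Col3a1), and on the HFD 2 were called higher (Col1a1 and Col3a1) and 1 lower (Hgf). The summed stellate level was 193 to 378 CPM in WT and 358 to 609 CPM in Adn-Lpin1-/- mice fed the LFD, and 348 to 445 CPM and 352 to 619 CPM in those fed the HFD. The cholangiocyte markers (4.87 to 14.4 CPM in sum) and the mesothelial markers (up to 13.6 CPM) had no call on either diet. Of 5 adipocyte markers only 1, Cfd, passed the limit on low counts, and it was called higher on each diet. The summed level of the list reached 4.63 CPM in WT and 36.1 CPM in Adn-Lpin1-/- mice fed the LFD, and 16.6 CPM and 184 CPM in those fed the HFD. Adipoq, Lep, Retn and Plin1 were at 0 in some libraries and could not be tested, so the list is not shown to have moved as a whole.

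Whether the genotype effect differed between diets was tested directly, and a difference was called for none of the 10 members and for 0% of all genes, the lowest adjusted p over all genes being 0.287. By the unadjusted p, none of the members and 938 of the 13052 genes were below 0.05 in edgeR's test. DESeq2's Wald test called 30 genes and voom called 0. A call on one diet and none on the other, as for Igf1 and Igfals, is therefore not shown to be a difference between the diets. The estimated differences (HFD effect minus LFD effect, log2 scale) were 0.20 ± 0.10 for Ghr, -0.17 ± 0.18 for Igf1, 0.31 ± 0.20 for Igfals and -0.14 ± 0.37 for Igfbp2.

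Averaged over both diets, a contrast added after seeing the data, the genotype effect was called for 6 of 10 members, 5 of them lower, where 32.9% of all genes were called and 15.8% were called lower. The log2 fold changes were -0.33 ± 0.05 for Ghr, -0.45 ± 0.09 for Igf1, -0.53 ± 0.10 for Igfals, -1.02 ± 0.19 for Igfbp2 and -0.26 ± 0.05 for Igfbp4. Igfbp3 was higher by 0.45 ± 0.17 (adjusted p = 0.0442), a call lost in 3 of 9 alternative settings (adjusted p up to 0.0708) and in 12 of 20 fits without 1 mouse (up to 0.0941). Stat5b (0.06 ± 0.05), Socs2 (-0.45 ± 0.28), Socs3 (0.15 ± 0.27) and Cish (-0.03 ± 0.55) were not called.

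Diet was compared within each genotype. In WT mice no member was called, where 1.10% of all genes were called, and 2 members had an unadjusted p below 0.05. These were Ghr, with a log2 fold change of -0.18 ± 0.07 (adjusted p = 0.202), and Stat5b, with 0.19 ± 0.07 (adjusted p = 0.187). In Adn-Lpin1-/- mice Stat5b alone was called, where 2.46% of all genes were called. It rose by a log2 fold change of 0.31 ± 0.07 on the HFD (adjusted p = 0.0197), and each of the 5 HFD mice (61.7 to 68.3 CPM) was above each of the 5 LFD mice (47.6 to 57.5 CPM). That call was lost without LFD mouse 3 (adjusted p = 0.0622) or HFD mouse 1 (0.0544). Igf1 changed by -0.06 ± 0.13 in WT and -0.23 ± 0.13 in Adn-Lpin1-/- mice, and Igfals by -0.09 ± 0.14 and 0.22 ± 0.14, none past the threshold.

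The spread between mice of a group separated the feedback genes from the rest. The pooled SD of log2 CPM within groups was 1.43 for Cish, 0.74 for Socs2 and 0.70 for Socs3, against a median of 0.19 over all genes tested. These lie at percentiles 99.7, 98.0 and 97.5 of all genes. Among genes whose mean level was within 0.5 on the log2 scale, the percentiles were 99.9 (2279 genes), 99.3 (2075 genes) and 99.0 (2053 genes). At the other end stood Ghr, Stat5b and Igfbp4, with 0.10, 0.10 and 0.11. Between lay Igf1 (0.21), Igfals (0.24), Igfbp3 (0.41) and Igfbp2 (0.48). Over the 20 mice the highest level was 16.1 times the lowest for Cish, 6.66 times for Socs2, 5.93 times for Igfbp2, 5.88 times for Socs3 and 1.49 times for Igfbp4.

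**Figure D3:**
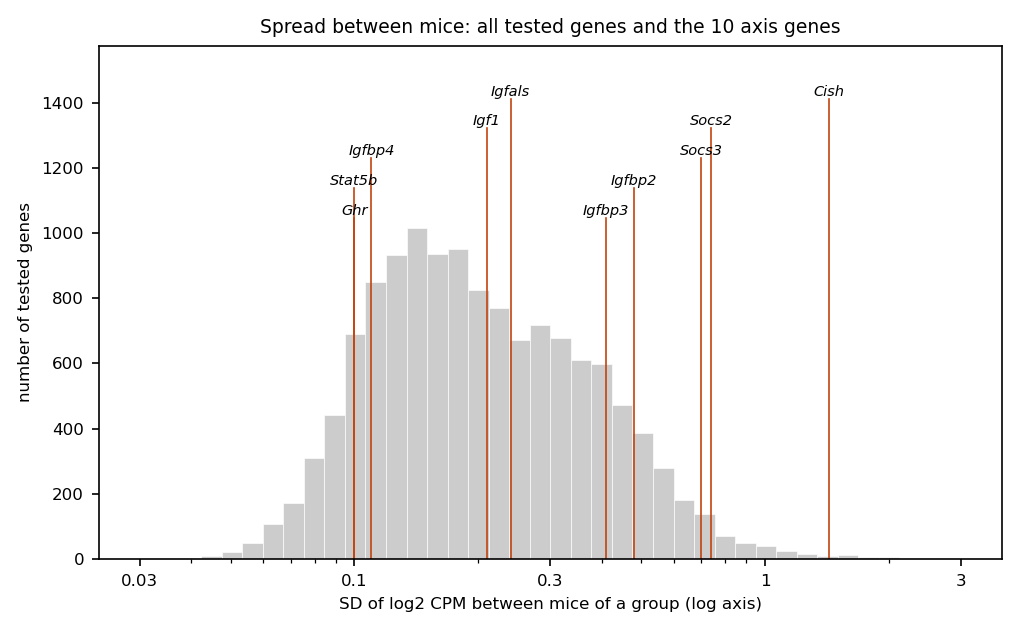
Gray bars count the tested genes by the SD of log2 CPM between mice of a group (log axis), and lines mark the 10 members. Cish, Socs2 and Socs3 stand at 1.43, 0.74 and 0.70, at the far right of the distribution, and Ghr, Stat5b and Igfbp4 near its left end.

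Cish levels fell on either side of a gap. In 10 mice they lay between 2.79 and 8.29 CPM and in 10 mice between 17.2 and 45.03 CPM. The lower side held 2 WT LFD, 4 Adn-Lpin1-/- LFD, 3 WT HFD and 1 Adn-Lpin1-/- HFD mice. Across the mice of one side, Socs2 and Cish had a Pearson r of 0.19 (Spearman rho 0.24) below the gap and 0.48 (rho 0.07) above it. A split on the level of Cish itself narrows its range and leaves 10 mice on a side, so these values do not show that a relation was absent.

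One mouse was often lowest for several members at once. WT LFD mouse 5 had the lowest level of its group for 6 of the 10 members (Socs2, Socs3, Cish, Igf1, Igfals and Igfbp2), Adn-Lpin1-/- LFD mouse 5 for 6 (Socs2, Socs3, Igf1, Igfals, Igfbp2 and Igfbp4) and WT HFD mouse 4 for 6 (Socs2, Socs3, Cish, Igf1, Igfals and Igfbp4). In Adn-Lpin1-/- HFD, mouse 1 was lowest for 5 (Socs2, Socs3, Cish, Igfals and Igfbp2). How often each of these mice was lowest over all genes was not counted, so this is not shown to be particular to the axis.

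Deviations from the group mean (log2 CPM) were correlated over the 20 mice for the 45 pairs of members, with 100000 permutations within groups and Benjamini-Hochberg adjustment over the 45. Igf1 and Igfals had r = 0.82 (permutation p = 1e-05, the smallest possible; adjusted p = 0.00045) and rho = 0.84 (permutation p = 8e-05; adjusted p = 0.0036). Without the 2 mice farthest from the median Igf1 r was 0.85, and it lay between 0.67 and 0.93 within the 4 groups. Igf1 and Igfbp2 had r = 0.75 (permutation p = 0.00059; adjusted p = 0.0133) and rho = 0.78 (permutation p = 0.00098; adjusted p = 0.0221), 0.77 without the 2 mice, and -0.12 to 0.97 within groups, above 0 in 3 of the 4. Socs2 and Cish were the third and last pair past the threshold (permutation, adjusted p = 0.0489 for r and 0.0494 for rho), with r of 0.19 to 0.94 within the 4 groups, and no r over all mice is given because Cish lies in 2 clusters. Igfbp3 ran opposite to Igf1 (r = -0.60) and Igfals (r = -0.66), and these pairs did not pass (permutation, adjusted p = 0.0606 for each). In each pair both values of a mouse come from one library and share its depth and cell content.

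**Figure D4:**
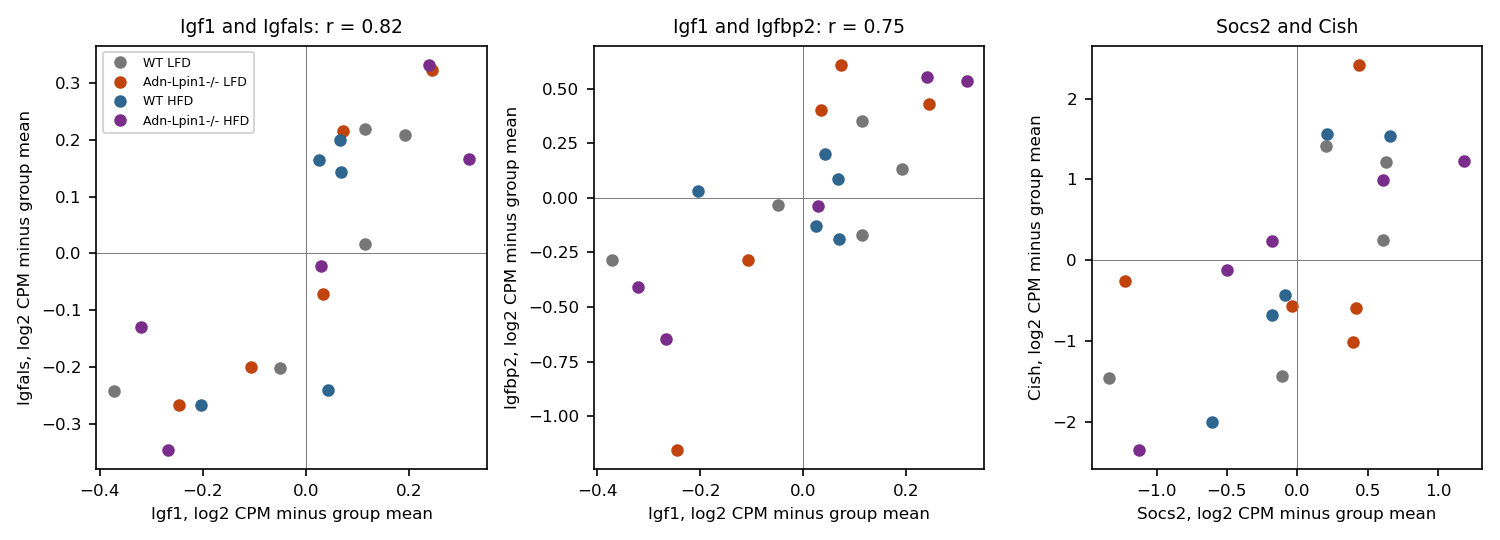
Each panel plots log2 CPM minus the group mean of 1 member against another, with 1 point per mouse (20 mice) colored by group. Igf1 rises with Igfals in each of the 4 groups (r = 0.82 over all mice) and with Igfbp2 in 3 of them (r = 0.75 over all mice), and Socs2 and Cish are shown without r because Cish levels lie on either side of a gap.

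By likeness over all 20 mice (Pearson r of log2 CPM among 7502 genes with a mean of at least 10 CPM), the genes nearest to Igf1 were Cyp2c70 (0.94), Cyp2c68 (0.93), Cyp4f14 (0.93), Paics (0.92) and Hsd3b5 (0.92). Farthest from it were Smarca4 (-0.94), Clstn3 (-0.93), Cd81 (-0.92), Sh3bgrl2 (-0.92) and Capn1 (-0.92). After subtraction of group means these r stayed between 0.81 and 0.87 for the first 5 and between -0.90 and -0.82 for the last 5. The genes nearest to Socs2 were Ftsj1 (0.85), Zfp568 (0.84), Vgll4 (0.83), Larp1 (0.82) and Kdm5b (0.79), and the farthest were Tmem110 (-0.83), Xpo6 (-0.81), Dock9 (-0.80), Emc1 (-0.77) and Cyp3a59 (-0.75). All points share libraries, and no test was made.

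Of 37 other genes of the axis (kinases, phosphatases, further SOCS genes, receptors, binding proteins and proteases), 31 were tested, and 5 were called between genotypes under LFD and 6 under HFD feeding, shares near the 14.4% and 18.6% of all genes. The 5 include Htra1, whose call is no support (below). Their median log2 fold change was 0.01 and -0.03. Insr, the insulin receptor, fell on each diet (-0.42 ± 0.08 and -0.43 ± 0.08, adjusted p = 0.00202 and 0.00138). It measured 103, 109, 130, 130 and 137 CPM in WT LFD and 83.6, 94.2, 91.9, 105 and 81.7 CPM in Adn-Lpin1-/- LFD, and it did not overlap on the HFD (127 to 143 against 92.2 to 107 CPM). Socs4 fell on each diet as well (-0.55 ± 0.10 and -0.52 ± 0.10).

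Igfbp7, a low-affinity member of the binding protein superfamily, rose on each diet (0.74 ± 0.15 and 0.55 ± 0.15, adjusted p = 0.00293 and 0.0154), from 21.3 to 42.2 CPM in WT LFD to 42.6 to 72.9 CPM in Adn-Lpin1-/- LFD and from 33.1 to 42.0 CPM in WT HFD to 49.2 to 60.2 CPM in Adn-Lpin1-/- HFD. The serine protease gene Htra1 was called higher on the LFD (0.268 to 1.15 CPM in WT against 1.29 to 3.59 CPM in Adn-Lpin1-/- mice, adjusted p = 0.00609). It exceeded 1 CPM in 10 of 10 Adn-Lpin1-/- but 3 of 10 WT mice. The WT mice alone would not have met the limit of 4, so the Htra1 call is no support. The phosphatase gene Ptpn6 was called higher on the LFD (0.20 ± 0.07), a call lost in 5 of 10 alternative settings (adjusted p up to 0.145) and in 14 of 20 fits without 1 mouse. These changes stood beside the higher endothelial and macrophage markers given above, whose part was not tested. On the HFD, Grb14, an adaptor that inhibits the insulin receptor, fell (-0.35 ± 0.09), Prlr, the prolactin receptor, fell (-0.75 ± 0.18), and the kinase gene Tyk2 was called higher (0.20 ± 0.07). The Tyk2 call was lost in 7 of 10 alternative settings (0.09 and adjusted p = 0.347 with the GC trend removed) and in 12 of 20 fits without 1 mouse, and with the GC trend removed Grb14 was -0.19 (adjusted p = 0.182) and Igfbp7 on the HFD 0.43 (0.0619). In WT mice diet called Prlr alone from this list, which rose by 0.85 ± 0.18 on the HFD, a call lost when any one of WT LFD mice 1, 2 and 4 and WT HFD mice 1, 2 and 3 was removed, and in Adn-Lpin1-/- mice diet called 0 of them (edgeR; 7 at an unadjusted p below 0.05, 3 with DESeq2 and 1 with voom, and 1 without LFD mouse 4 or 5 or HFD mouse 4 or without WT HFD mouse 5). Jak2, singled out after its values were seen, was not called under either diet (-0.05 ± 0.08 and -0.03 ± 0.08).

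Male-biased liver genes, which follow the male pattern of growth hormone release, were all tested (20 of 20). On the LFD 5 were called, all lower, where 14.4% of all genes were called and 8.11% were called lower, and the median log2 fold change of the list was -0.53. Susd4 fell by 1.17 on the log2 scale (SE 0.16), the steroid dehydrogenase gene Hsd3b5 by 1.32 (SE 0.35), the organic anion transporter gene Slco1a1 by 0.58 (SE 0.12), and the major urinary protein genes Mup1 and Mup12 by 1.35 (SE 0.42) and 1.33 (SE 0.41). Hsd3b5 measured 300, 340, 268, 279 and 155 CPM in WT LFD and 154, 83.9, 154, 85.8 and 58.1 CPM in Adn-Lpin1-/- LFD, with no overlap. Mup genes are near-identical copies whose reads are hard to assign, so their values are uncertain.

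On the HFD 5 male-biased genes were called, 4 lower and 1 higher, where 18.6% of all genes were called and 8.78% were called lower, with a list median of -0.23. The lower ones were Susd4 (-0.80 ± 0.16), Hsd3b5 (-1.04 ± 0.35), Slco1a1 (-0.73 ± 0.12) and Serpina1e (-1.94 ± 0.61), the last from a family of near-identical copies, and the higher one was Cyp2d9 (0.31 ± 0.08), which missed the threshold with the GC trend removed (0.24, adjusted p = 0.0615). Of 20 fits without 1 mouse, 7 lost the HFD call of Hsd3b5 (adjusted p up to 0.106) and 5 that of Serpina1e (up to 0.127), and on the LFD 7 lost that of Mup1 (up to 0.102) and 6 that of Mup12 (up to 0.089). The HFD count was 8 without Adn-Lpin1-/- HFD mouse 5, and 3 without WT HFD mouse 5 or Adn-Lpin1-/- HFD mouse 1, 2 or 3. Over all genes these fits called 2377, 1904, 1816, 1477 and 2019 in that order, against 2434 with every mouse. The LFD count was 10 without WT LFD mouse 5 and 9 without Adn-Lpin1-/- HFD mouse 5, and 3 without WT LFD mouse 3 or Adn-Lpin1-/- LFD mouse 2, 4 or 5. Over all genes these fits called 1929, 1891, 1208, 1254, 1727 and 1317 in that order, against 1877 with every mouse. Of 21 female-biased genes 13 were tested, and 2 were called on each diet, shares near the 14.4% (LFD) and 18.6% (HFD) of all genes. The 13 did not move together, with medians of -0.38 (LFD) and 0.04 (HFD). Atp6v0d2, a subunit of the vacuolar proton pump, was lower on each diet (-0.84 ± 0.27 and -1.16 ± 0.25), Slc22a27 was higher on the LFD (1.99 ± 0.64), and Prlr, which is also in the list of axis genes, was lower on the HFD. No mouse of the lower LFD group exceeded 1 CPM for Atp6v0d2 or Slc22a27. Over both diets Atp6v0d2 exceeded 1 CPM in 8 of 10 WT and 3 of 10 Adn-Lpin1-/- mice, and Slc22a27 in 2 and 8. Each thus passed the limit of 4 mice through the genotype in which it was high, and the calls of these 2 genes are no support. The LFD call of Atp6v0d2 was lost in 6 of 10 alternative settings (adjusted p up to 0.103) and that of Slc22a27 in 2 (up to 0.0757). The 2 LFD calls fell to 1 without WT LFD mouse 1 or Adn-Lpin1-/- LFD mouse 4, and to 0 without WT LFD mouse 3 or 4 or Adn-Lpin1-/- LFD mouse 2 or 5. The 2 HFD calls became 4 without WT LFD mouse 5, Adn-Lpin1-/- LFD mouse 3 or WT HFD mouse 4, and 5 without Adn-Lpin1-/- HFD mouse 5. Fits without 1 mouse called 1208 to 1954 (LFD) and 1477 to 2750 (HFD) of all genes.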

How the data were processed

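Liver poly-A RNA of 20 single mice and 4 pools was sequenced. Per the labels and the study's methods, the authors aligned reads to GRCm38 with STAR 2.5.1a, counted uniquely aligned reads on Ensembl release 76 genes with featureCounts 1.4.6-p5, and deposited the raw count, CPM and RPKM of each gene. The deposited CPM and RPKM are scaled by the library total and RPKM also by gene length. Symbols matched 40254 of 41388 identifiers (97.3%).

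All tests used the deposited counts. The 355 rRNA genes (0.265% to 0.465% of counts) were left out, and 13052 genes that exceeded 1 CPM in 4 or more of 20 mice were kept. The 4 group means were fitted together with edgeR 4.0.16 (R 4.3.3, TMM scaling, quasi-likelihood test), with Benjamini-Hochberg adjustment over all genes and a threshold of 0.05. Pools were left out as repeats of the same mice. The study used limma's voom with quality weights. Its figure legends for the liver RNA sequencing give a group size that is reached when the pool is counted beside the 5 single mice. Its methods do not mention the pools. A pool lay within the range of its 5 mice for 9 or 10 of the 10 members. No libraries were duplicates (chi-square per degree of freedom 28.4 to 178). Alternatives were DESeq2 1.42.0 size factors and Wald test, voom (limma 3.58.1) without and with pools, no limit on low counts and edgeR's default one, the 2 groups alone, the replicate number as a block, removal of the trend with GC content, thinning to one total, and each mouse left out. Permutations, figures and sequence searches were run in Python 3.11.15 (scipy 1.17.1 and pandas 2.3.3, with numpy 2.4.6, plots with matplotlib 3.10.9). The fits were tested on simulated counts.

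The members and lists were chosen with earlier results of these data known. All 10 members are named in every comparison, and from each list the called genes, up to 6 of the largest change in each direction. For likeness, the 5 highest and 5 lowest r are named.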

Additional observations from a re-analysis of the deposited data

Results flagged for a closer look

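In 40 groups of 5 mice (10 members in 4 groups), a mouse stood apart from the others by Dixon's 95% criterion (0.71) in 2, where chance gives about 1 in 20. Cish was 41.97 CPM in 1 Adn-Lpin1-/- LFD mouse against 6.573 CPM in the next, a gap of 0.929 of the group's range. Igf1 was 625.5 CPM in 1 WT HFD mouse against 733.4 CPM in the next, a gap of 0.829 of the range.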

How the results depend on the processing

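Of the 9 calls of members by genotype on each diet and by diet, 83 of 90 alternative settings and 168 of 180 fits without 1 mouse kept the call, and none reversed. The calls lost in alternative settings are given with their adjusted p. They were Ghr on the HFD with no filter (0.0512), only its 2 groups (0.0692), the block (0.0517) and the GC trend removed (0.331), Igf1 on the HFD with the GC trend removed (0.0619), and Igfbp4 on the HFD with no filter (0.0685) and the block (0.0569). The cause of these losses was not tested. Thinning to one total lost no call of a member.

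The replicate number was also used as a block. For the 30 pairs of mice with the same number in different groups, the deviations had correlations of -0.41 to 0.275 (median -0.012), 6 over 0.1. In 6 of 30 a mouse correlated best with its own number. These values show no pairing by number, but they cannot exclude one, and the labels do not say what the numbers stand for. With the block, 2 members were called by genotype on the HFD, 3 and 3 male-biased genes (LFD and HFD), 0 female-biased genes on the LFD, and 90 genes in all by diet in WT. By genotype the block called 1532 (LFD) and 2012 (HFD) genes in all, against 1877 and 2434 without it.

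Voom with the pools as sixth libraries counts the same mice again and gave the most calls. By genotype it called 7 members on the HFD, 11 and 10 other axis genes, 12 male-biased genes on the LFD, 8 and 9 female-biased genes and 8 and 11 acute phase genes (LFD and HFD). By diet in WT it called 2 members and 7, 5, 5 and 7 genes of these lists, and in Adn-Lpin1-/- mice 3 members and 6, 8, 7 and 9. It called 1 other axis, 1 male-biased and 1 female-biased gene for the difference between diets, and 13 male-biased genes averaged over diets. Over all genes it called 4177 and 4763 by genotype, 1927 and 2327 by diet and 190 for the difference.

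Voom without pools called 9 male-biased genes and 1 female-biased gene on the LFD, 7 acute phase genes on the HFD, 2, 4, 3 and 4 genes of the lists by diet in WT (670 over all genes) and 1 other axis gene by diet in Adn-Lpin1-/- mice. DESeq2's Wald test called 5 female-biased genes on the HFD, 2 other axis, 2 male-biased and 3 female-biased genes by diet in WT (400 over all genes), and 3 other axis and 5 male-biased genes by diet in Adn-Lpin1-/- mice (577 over all genes). With no filter 2 members on the HFD, 1 female-biased gene and 0 acute phase genes on the LFD, and 2 male-biased and 2 female-biased genes by diet in WT were called, and edgeR's default filter gave 2 of the last. With only the 2 groups 10 male-biased genes and 1 female-biased gene on the LFD, 5 female-biased genes on the HFD, and 2 other axis genes and 1 acute phase gene by diet in WT were called (72 and 161 genes in all by diet in WT and Adn-Lpin1-/-). With the GC trend removed these were 3 male-biased genes and 1 female-biased gene on the LFD, 3 other axis and 2 acute phase genes on the HFD and 2 male-biased genes by diet in WT, and thinning gave 1 female-biased gene on the LFD. Over all genes by genotype (LFD and HFD), voom called 2217 and 2447, and DESeq2's Wald test 2248 and 2917. No filter gave 1386 and 1859, the 2 groups 1571 and 1982, GC removal 1661 and 2105, and thinning 1739 and 2280.

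Without 1 mouse, counts ranged on the LFD from 3 to 10 male-biased, 0 to 3 female-biased and 0 to 1 acute phase genes, and on the HFD from 2 to 6 members, 3 to 8 male-biased, 2 to 5 female-biased and 1 to 6 acute phase genes. By diet in WT they ranged from 0 to 2 other axis, 1 to 2 male-biased and 0 to 3 female-biased genes, and in Adn-Lpin1-/- mice from 0 to 1 members, 0 to 1 other axis, 1 to 3 male-biased and 0 to 4 female-biased genes. The calls over all genes moved as well in these fits. They ranged from 1208 to 1954 (LFD) and 1477 to 2750 (HFD) by genotype, and from 55 to 289 (WT) and 123 to 383 (Adn-Lpin1-/-) by diet.

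Signs changed only for uncalled values that were smaller than their standard error in the main fit. The largest of them was Cish by diet in WT (-0.26 ± 0.78). Stat5b by genotype on the LFD was 0.0036 with DESeq2's size factors and test, 0.03 with voom and with pools, 0.01 with no filter, 0.0031 with the 2 groups and 0.0016 with the block (-0.05 to 0.04 without 1 mouse). By diet in WT, Socs3 was -0.15 with voom and -0.07 with pools (-0.17 to 0.30), and Igfbp3 -0.11, -0.05 and, thinned, -0.0027 (-0.19 to 0.10). By diet in Adn-Lpin1-/- mice Igfbp3 was 0.01 with voom and with the block (-0.16 to 0.10). For the difference between diets Igfbp3 was 0.12 with voom, 0.05 with pools and 0.01 with the block (-0.17 to 0.17), and Igfbp4 -0.02 with pools (-0.0026 to 0.09). Averaged over diets Cish was 0.01 with the block (-0.66 to 0.17). Without 1 mouse the ranges were also -0.33 to 0.09 for Socs2 and -0.42 to 0.01 for Socs3 by genotype on the LFD, -0.10 to 0.27 for Socs2 and -0.67 to 0.11 for Cish by diet in WT, and -0.02 to 0.05 for Ghr by diet in Adn-Lpin1-/- mice.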

Other observations

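The genes of STAT3 signaling and the acute phase, the other cytokine pathway that Socs3 answers, were all tested (20 of 20). By genotype, the inhibitor gene Itih4 was called lower on the LFD (-0.32 ± 0.09) and, with the 3 fibrinogen genes Fga (-0.41 ± 0.13), Fgb (-0.42 ± 0.13) and Fgg (-0.42 ± 0.12), lower on the HFD. The hepatocyte markers were lower by a like amount on the HFD (median -0.42), and their part was not tested. On the HFD, Fga ranged from 3370 to 5169 CPM in WT and from 2748 to 3660 CPM in Adn-Lpin1-/- mice, which overlap. The LFD call was lost without WT LFD mouse 3 or Adn-Lpin1-/- LFD mouse 2 or 5, and the HFD count fell from 4 to 2 without WT HFD mouse 2 and to 1 without Adn-Lpin1-/- HFD mouse 1 or 2. Those HFD fits called 1754, 1816 and 1477 of all genes, against 2434 with every mouse. By diet 2 were called in WT and 3 in Adn-Lpin1-/- mice, where 1.10% and 2.46% of all genes were called. Itih4 was called higher in each genotype (0.50 ± 0.09 in WT and 0.47 ± 0.09 in Adn-Lpin1-/- mice). The metalloreductase gene Steap4 was called higher in WT mice (0.70 ± 0.12), and in Adn-Lpin1-/- mice Saa3 was called higher (1.31 ± 0.25) and Orm1 lower (-0.59 ± 0.15). The Orm1 call was lost in 11 of 20 fits without 1 mouse (adjusted p up to 0.1155) and with the replicate block (0.0779), and those of Fga, Fgb and Fgg on the HFD in 4, 6 and 4 of 20.

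Sex-biased genes were also called by diet. In WT mice 1 of 20 male-biased and 1 of 13 tested female-biased genes were called, where 1.10% of all genes were called. In Adn-Lpin1-/- mice 2 and 3 were called, where 2.46% of all genes were called. Of the male-biased list, Cyp4a12b fell on the HFD in WT (-1.48 ± 0.17) and in Adn-Lpin1-/- mice (-1.72 ± 0.17), from 176 to 234 CPM to 45.01 to 107 CPM in WT, and Cyp4a12a fell in Adn-Lpin1-/- mice (-1.11 ± 0.24). Of the female-biased list, Cyp2b9 (4.94 ± 1.26), Cyp2b13 (4.39 ± 0.94) and Cyp2a4 (0.72 ± 0.17) were called higher on the HFD in Adn-Lpin1-/- mice, and Prlr in WT mice. Cyp2b13 exceeded 1 CPM in 4 mice, all on the HFD, so it passed the limit on low counts only through the diet on which it was high and had to differ, and its call is no support. Cyp2b9 exceeded 1 CPM in 9 of 10 HFD but 3 of 10 LFD mice, so the LFD mice alone would not have met the limit of 4. Its call is no support either. The Cyp2b9 call was lost in 10 of 20 fits without 1 mouse (adjusted p up to 0.101) and with voom (0.108). Of these 3 calls in Adn-Lpin1-/- mice, 1 was left without LFD mouse 2 or 4 or HFD mouse 3, and 0 without LFD mouse 3 or HFD mouse 1 or 2, and 1 of the 2 male-biased calls was left without HFD mouse 1. In WT mice 3 female-biased genes were called without WT LFD mouse 5 or Adn-Lpin1-/- LFD mouse 2, and 2 male-biased genes without Adn-Lpin1-/- HFD mouse 4 or 5. Cyp2b9 measured 0.776, 0.174, 0.0159, 3.67 and 5.62 CPM in Adn-Lpin1-/- LFD and 133, 92.9, 54.2, 23.04 and 12.3 CPM in Adn-Lpin1-/- HFD mice, and in WT mice 0.0515 to 13.4 CPM and 0.274 to 51.1 CPM. The pairs Cyp4a12a and Cyp4a12b, and Cyp2b9 and Cyp2b13, are close copies whose reads may be split between them.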
